A study of Canis lupus familiaris with 9 samples.

Results

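ATP-binding cassette (ABC) transporters are membrane pumps that use ATP to move lipids, drugs, peptides, metal complexes and conjugated metabolites across membranes. The family is divided by sequence into subfamilies A to G. Members of E and F lack a membrane domain and act in translation instead of transport. Macrophages are known for the sterol exporters ABCA1 and ABCG1, which unload the cholesterol taken up with lipoproteins and dead cells, and both genes are classical targets of the liver X receptors (LXR). In this study the family was taken as every gene in the deposited expression table whose symbol starts with ABC, a subfamily letter from A to G and a number. This selected 26 of 12696 protein coding genes, and it used no measured value. The family in RefSeq's dog annotation (UU_Cfam_GSD_1.0) holds 44 such symbols, and the other 18 were not analysed here. TAP1, a transporter of the family that goes by another symbol, is not counted among the 26.

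Macrophages were grown from blood monocytes of beagles, spayed females of about 2 years, for 7 days in M-CSF at 10 ng/mL. Polarization then lasted 24 h. The M2 cells received IL-13 together with IL-4 (20 ng/mL of either), the M1 cells received IFN-γ (20 ng/mL), and the M0 cells received no polarizing cytokine. RNA was sequenced from 9 cultures, 3 per group, whose descriptions repeat in each group and were read as 3 dogs. Monocytes were isolated by adherence alone, so a culture may hold other blood cells.

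The values are the mean normalized counts of each group as the authors estimated them, pooled over the cultures of the group. Values per sample were not analysed here, so no spread between cultures, no error and no test could be had for any difference given here, and the depth of each library is unknown from these values. Differences are log2 ratios of group means, and a gene was counted as higher or lower where the means differed at least 2-fold and the higher mean reached 50. How often all genes of the table passed the same limits is given as background. The comparisons share groups, so their results do not stand apart from each other. The group means summed to 27312028 normalized counts in M2, 28039918 in M1 and 26728643 in M0.

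Of the 26 genes, 23 had a mean of at least 50 in one group or more. These were 4 of 6 in subfamily A, all 6 in B, 5 of 6 in C, all 3 in D, the only E gene, both F genes and both G genes. ABCA12, ABCA13 and ABCC6 stayed below 50 in M2, M1 and M0, and no ratio was drawn for them. ABCB4 and ABCC5 were below 50 in M1 and passed through their other groups. All 23 also reached 50 on the mean of the 3 groups.

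**Figure D1:**
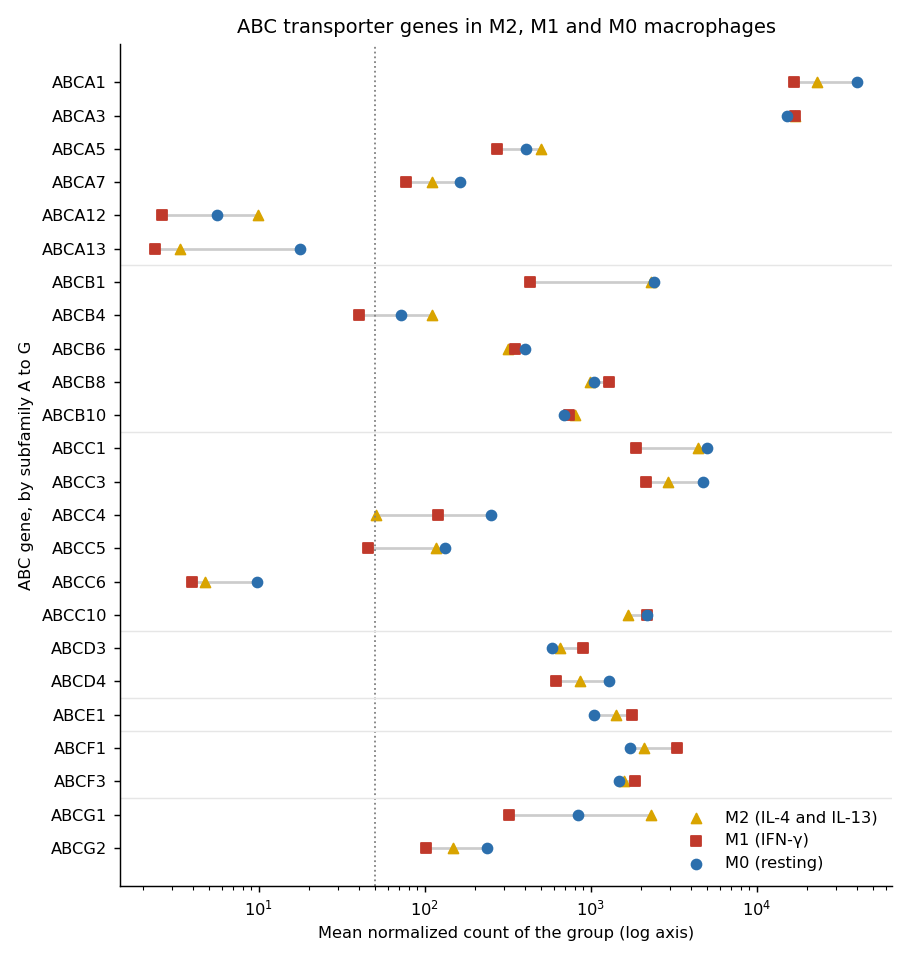
Mean normalized count of 24 of the 26 ABC genes in M2 (triangles), M1 (squares) and M0 (circles) macrophages, on a log axis, 1 pooled value per group with no error. The dotted line marks 50. Of the genes that reach 50, ABCG1 and ABCB1 have the widest gaps between groups, while the 3 points of ABCA3 nearly coincide between 15224 and 17131.

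The largest family-wide difference was between IFN-γ treated and resting cells. Of the 23 genes, 10 were at least 2-fold lower in M1 than in M0, while 8.77% of all genes passed that limit. None was at least 2-fold higher in M1, against 5.56% of all genes. The median log2 ratio of the 23 genes was -0.60, and that of all genes was 0.014. The size of the family median varied with the minimum, from -0.94 with none to -0.23 with a minimum of 200. The ratios of the family ran from -2.48 for ABCB1 to 0.94 for ABCF1. The 10 lower genes were ABCA1, ABCA7, ABCB1, ABCC1, ABCC3, ABCC4, ABCC5, ABCD4, ABCG1 and ABCG2. In bulk RNA, fewer cells of a type and less RNA per cell cannot be told apart. Markers of macrophages were themselves mostly lower in M1. The table held 11 of 12 listed markers, and they summed to 132570 normalized counts in M1 and 292902 in M0. All 11 were above 50 in each group, 5 of them were at least 2-fold lower in M1, and none was at least 2-fold higher. MERTK, AIF1 and SPI1 were not lower in M1, with log2 ratios of 0.91, 0.20 and 0.015 against M0. The 2 endothelial markers in the table were also at least 2-fold lower in M1 than in M0, PECAM1 with 34.2 in M1 and 111 in M0, and VWF with 14.7 in M1 and 70.1 in M0. The part of these markers in the ABC result was not tested.

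**Figure D2:**
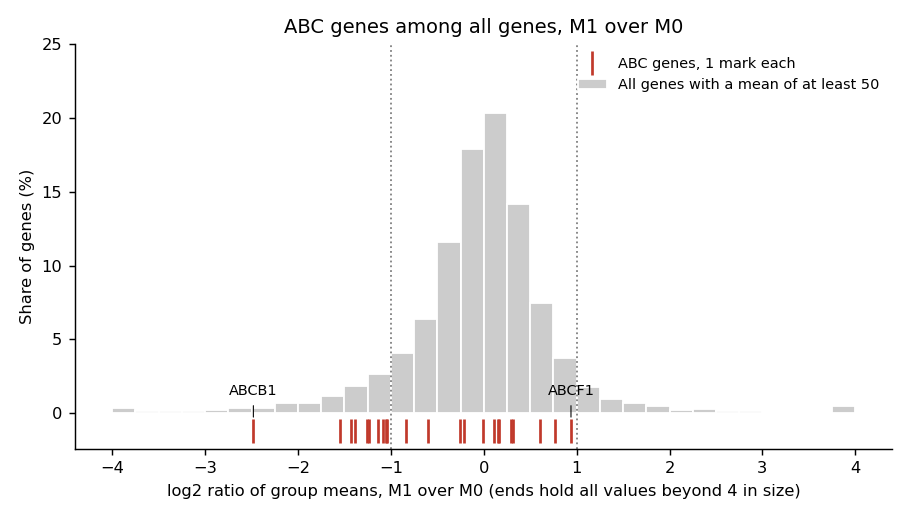
Share of all 10790 genes with a mean of at least 50 in M1 or M0, by their log2 ratio of M1 over M0 in bins of 0.25 (grey bars), with 1 mark for each of the 23 ABC genes below. Dotted lines mark 2-fold. The marks spread to the left, from ABCB1 at -2.48, and none passes the right line.

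In cells given IL-4 and IL-13, most of the family stayed within 2-fold of the resting cells. Only ABCG1 was at least 2-fold higher in M2 than in M0, and only ABCC4 at least 2-fold lower, 1 of 23 genes each. Over all genes 2.99% were higher and 3.49% lower, so these counts are close to the background. The median log2 ratio was -0.14 in the family and 0.021 over all genes. The direct comparison of M2 with M1 separated more members. There 5 of 23 genes were at least 2-fold higher in M2 (7.0% of all genes), namely ABCB1, ABCB4, ABCC1, ABCC5 and ABCG1. Only ABCC4 was at least 2-fold lower in M2 than in M1 (5.72% of all genes). The medians were 0.12 in the family and -0.0027 over all genes.

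**Figure D3:**
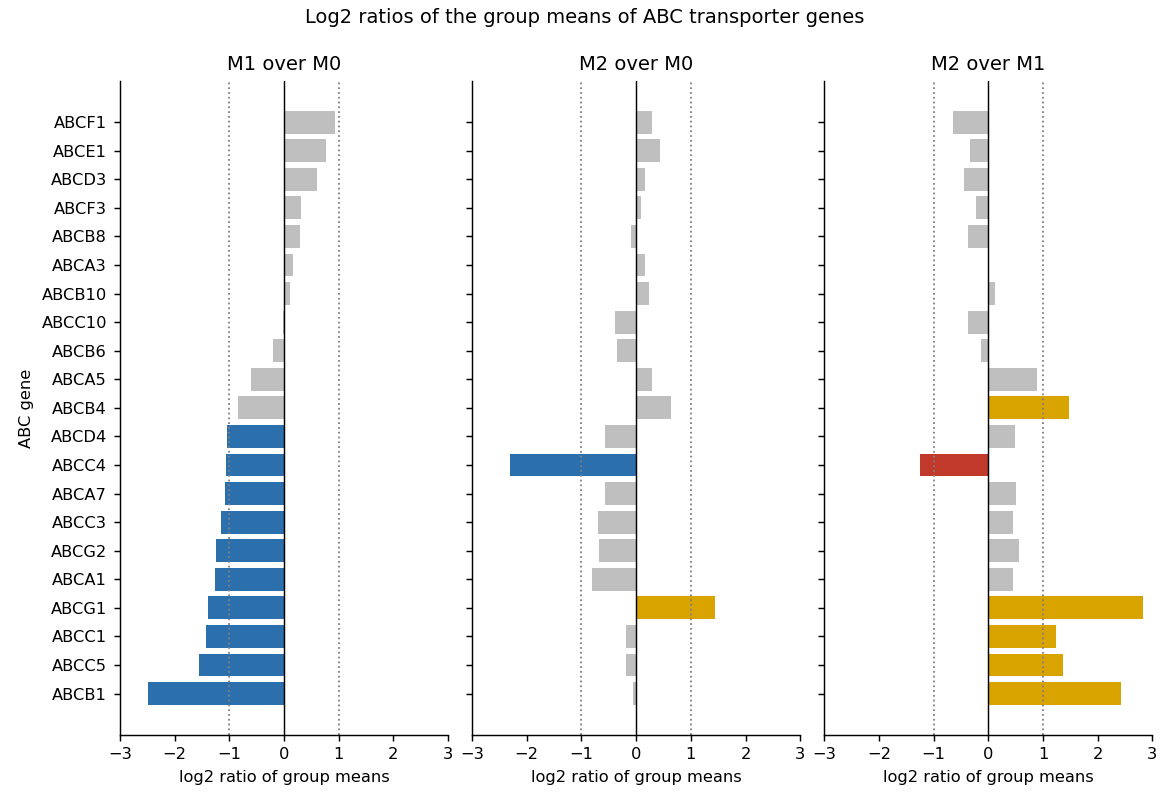
Log2 ratios of the group means for 21 of the 23 ABC genes with a mean of at least 50, in M1 over M0 (left), M2 over M0 (middle) and M2 over M1 (right), ordered by the left panel. Colored bars passed 2-fold with 50 in the higher group, in the color of the group with the higher mean (M2 yellow, M1 red, M0 blue), grey bars did not, and dotted lines mark 2-fold.

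The order of the 3 levels was also counted. M1 had the lowest mean for 12 of the 23 genes, against 40.2% of all genes with a mean of at least 50 in one group or more. M0 had the highest mean for 12 genes, against 32.2% of all genes. M1 had the highest mean for 6 genes, against 41.1% of all genes. The commonest order in the family was M0 above M2 above M1, found for 9 of its genes and for 23.5% of all genes. Over all genes the commonest order was M1 above M2 above M0, with 26.5%, and 4 genes of the family had it. Many of these orders rest on small gaps. The highest and lowest of the 3 means lay within 1.3-fold for 7 genes, among them ABCA3, ABCB6, ABCB8, ABCB10 and ABCF3, and within 2-fold for 12 genes. The share of all genes within these ranges is not given here, so these 2 counts have no background.

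Among the lipid transporters the sterol exporters came first. ABCA1, which loads cholesterol and phospholipid onto apolipoprotein A-I, had means of 23172 in M2, 16854 in M1 and 40417 in M0. The resting cells were highest, M1 was 2.40-fold lower than M0 (log2 ratio -1.26) and M2 lay between them (-0.80 against M0). ABCG1, which exports sterol to high-density lipoprotein, had means of 2299 in M2, 322 in M1 and 843 in M0. Here the M2 cells were highest, 2.73-fold above M0 and 7.14-fold above M1, and M1 was 2.62-fold below M0. Of all genes, 98.7% had a log2 ratio of M2 over M1 at or below the 2.84 of ABCG1. The ratio of ABCA1 to ABCG1 counts was 10.1 in M2, 52.4 in M1 and 47.9 in M0. Gene length cancels when this ratio is compared between groups, so the balance of the pair differed in M2 and was nearly alike in M1 and M0.

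No gene of subfamily A with a mean of at least 50 was 2-fold higher in M2 than in M1 or M0. ABCA3, known from the surfactant-storing lamellar bodies of the lung, had means of 17131 in M2, 17002 in M1 and 15224 in M0. It was level across groups, within 1.13-fold. ABCA1 and ABCA3 together held 61.2% of the family's summed counts in M2, 62.0% in M1 and 67.1% in M0. ABCA7, a phospholipid transporter linked to phagocytosis, was 2.11-fold lower in M1, with means of 110 in M2, 77.6 in M1 and 164 in M0. ABCA5, found in lysosomes, had means of 500 in M2, 271 in M1 and 410 in M0, the same order as ABCG1, but no pair of groups differed 2-fold. The summed level of subfamily A was 40927 in M2, 34210 in M1 and 56238 in M0, and ABCA1 made up 71.9% of it in M0.

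ABCA1 and ABCG1 were set beside a list of 25 genes of cholesterol handling and the LXR pathway, of which 23 had a mean of at least 50. In M1 against M0, 1 gene was at least 2-fold higher and 3 were lower, and the median log2 ratio was -0.28. Over all genes 5.56% were higher and 8.77% lower, so these counts are not far from the background. The higher gene was NR1H3, which encodes LXRα, with means of 585 in M2, 9277 in M1 and 1128 in M0. Its log2 ratio was 3.04 in M1 against M0, while that of ABCA1 was -1.26 and that of ABCG1 -1.39. NR1H3 was lower in M2 than in M1, with a log2 ratio of -3.99, where ABCG1 stood at 2.84. NR1H2, encoding LXRβ, had 2947 in M2, 2648 in M1 and 3078 in M0. The lower genes in M1 included CYP27A1, the sterol 27-hydroxylase, with means of 1825 in M2, 196 in M1 and 1077 in M0. MYLIP, the LXR target that degrades the LDL receptor, had 271 in M2, 164 in M1 and 652 in M0. SOAT1, which esterifies cholesterol for storage, was the third lower gene. In M2 against M0 no gene of the list was 2-fold higher and MYLIP alone was lower, at -1.27, with a median of -0.15 over the list. The shares of all genes there were 2.99% higher and 3.49% lower. In M2 against M1, CYP27A1 and LIPA, the lysosomal acid lipase, were higher (7.0% of all genes), at 3.22 and 1.14. APOE, NR1H2, LMBRD1, EIF2S1 and GSPT1 differed less than 2-fold and were picked after their values were seen. APOE, the macrophage apolipoprotein and LXR target, had 3017 in M2, 2940 in M1 and 3447 in M0, a narrow range beside those of ABCA1 and ABCG1.

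**Figure D4:**
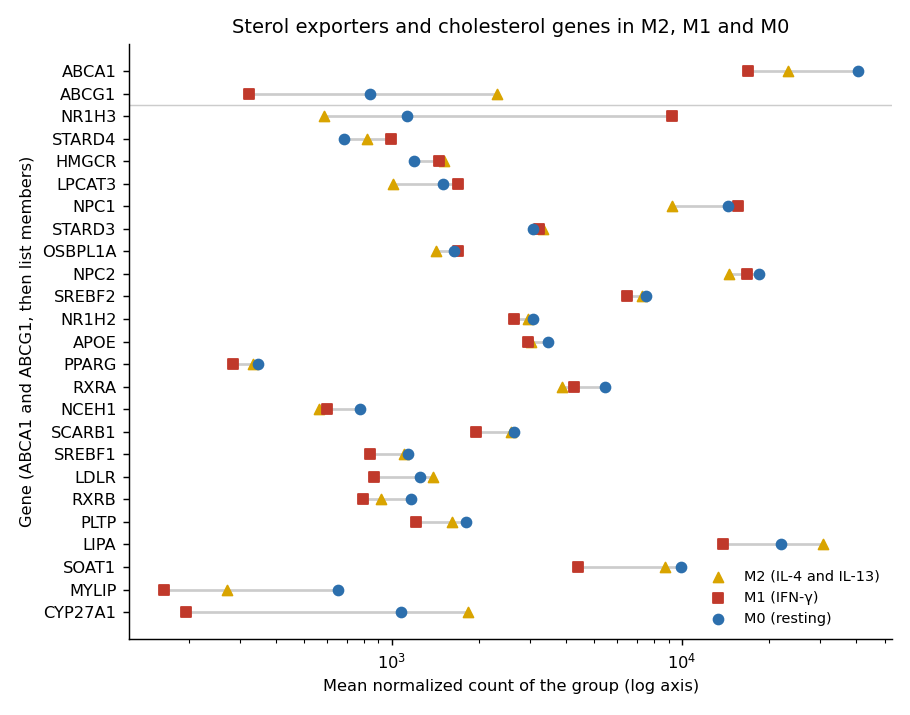
Mean normalized counts in M2 (triangles), M1 (squares) and M0 (circles) of ABCA1 and ABCG1 (above the line) and of the 23 measured genes of the cholesterol and LXR list, ordered by M1 over M0, on a log axis, 1 pooled value per group. NR1H3 is far to the right in M1, at 9277, while ABCA1, ABCG1, MYLIP and CYP27A1 are lowest there.

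Of the 23 genes, ABCB1 had the largest difference between M1 and M0. It encodes P-glycoprotein, the multidrug exporter, and in dogs it is known for the MDR1 deletion of herding breeds, which makes carriers sensitive to ivermectin. Its means were 2298 in M2, 430 in M1 and 2402 in M0. M2 and M0 were level (log2 ratio -0.06), and M1 stood 5.58-fold below M0 and 5.34-fold below M2. Of all genes, 1.39% had a log2 ratio of M1 over M0 at or below the -2.48 of ABCB1. ABCB4, its direct neighbor on the chromosome in RefSeq's annotation, exports phosphatidylcholine into bile in the liver. It had means of 111 in M2, 40.2 in M1 and 72.0 in M0, a log2 ratio of 1.47 in M2 against M1. Both genes were lowest in M1. They are close relatives in sequence, and how reads shared by both were counted is not given in the sources used here, so the ratios of ABCB4 are uncertain.

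The exporters of subfamily C, the multidrug resistance-associated proteins, were lower in M1 with one exception. ABCC1, which exports leukotriene C4 and glutathione conjugates, had means of 4402 in M2, 1864 in M1 and 5013 in M0. ABCC3, an exporter of glucuronide conjugates, had 2937 in M2, 2160 in M1 and 4765 in M0. ABCC5, an exporter of cyclic nucleotides, had 117 in M2, 45.6 in M1 and 133 in M0. M1 was lowest for all 3, by 2.69-fold, 2.21-fold and 2.92-fold against M0, and the M2 and M0 means of ABCC1 and ABCC5 were close. ABCC10 was the exception, with 1688 in M2, 2180 in M1 and 2196 in M0, and M1 and M0 were level. The summed level of subfamily C was 9200 in M2, 6373 in M1 and 12369 in M0.

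ABCC4 was the only member at least 2-fold lower in M2 than in both other groups. It exports cyclic nucleotides and prostaglandin E2. Its means were 50.7 in M2, 121 in M1 and 251 in M0. M2 was 4.96-fold below M0 and 2.38-fold below M1, and M1 was 2.08-fold below M0. Of all genes, 0.426% had a log2 ratio of M2 over M0 at or below its -2.31. The levels were modest, with M2 near the minimum of 50. CSF3R, a receptor listed as a marker of neutrophils, was likewise lowest in M2, with 92.9 in M2, 376 in M1 and 664 in M0. MPO, the other neutrophil marker with values, went the opposite way and was highest in M2. It had 29.3 in M2, 3.61 in M1 and less in M0, all below the minimum of 50. The part of neutrophils in the ABCC4 result was not tested.

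ABCG2, the breast cancer resistance protein, exports drugs, urate and porphyrins. It had means of 148 in M2, 101 in M1 and 239 in M0. M1 was 2.36-fold below M0, and M2 was 1.61-fold below M0, the opposite side from ABCG1. The subfamily sum (2448 in M2, 423 in M1 and 1082 in M0) therefore followed ABCG1, which held 93.9% of it in M2.

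Around the subfamily C exporters, 12 of 21 listed genes of glutathione and leukotriene metabolism reached 50. SLC7A11, the cystine importer that feeds glutathione synthesis, was lower in M1 than in M0, with 1399 and 3723, and had 3729 in M2. ALOX5AP, which presents arachidonate for leukotriene synthesis, had 2905 in M2, 1953 in M1 and 6845 in M0. Its log2 ratios were -1.81 in M1 and -1.24 in M2, each against M0. GPX1, a glutathione peroxidase, was higher in M1, with 31350 against 15325 in M0. Its log2 ratio was 1.03, and it no longer passed 2-fold with the groups scaled to equal totals. In M1 against M0, 1 gene of the list was higher and 2 were lower, against 5.56% and 8.77% of all genes. In M2 against M0 none was higher and 1 was lower, against 2.99% and 3.49% of all genes. The list's median log2 ratio was 0.12 in M1 and -0.17 in M2, each against M0. The medians of all genes were 0.014 and 0.021. In M2 the list median was close to the lower quartile of all genes, -0.19.

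The transporters of mitochondria differed little between groups. ABCB10, needed for heme synthesis, had means of 809 in M2, 744 in M1 and 687 in M0. ABCB8 of the inner mitochondrial membrane had 991 in M2, 1286 in M1 and 1053 in M0. ABCB6, a porphyrin transporter, had 316 in M2, 348 in M1 and 402 in M0. All 3 ranges were within 1.3-fold. Of 22 measured iron-sulfur and heme genes, 1 was at least 2-fold higher and none lower in M1 against M0, namely HSPA9, a mitochondrial chaperone, at 1.13. The shares of all genes there were 5.56% higher and 8.77% lower. In M2 against M0 none was lower (3.49% of all genes). The medians of the list were 0.20 in M1 and 0.14 in M2, each against M0. In M2 against M1, SLC25A37, the mitochondrial iron importer, was lower, at -1.76 (5.72% of all genes).

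In subfamily D, ABCD3 and ABCD4 stood on opposite sides in M1. ABCD3, the peroxisomal membrane protein PMP70, had means of 656 in M2, 894 in M1 and 587 in M0, and M1 was 1.52-fold above M0. ABCD4 releases vitamin B12 from lysosomes. It had 867 in M2, 622 in M1 and 1283 in M0, and M1 was 2.06-fold below M0, close to the limit. LMBRD1, which works with ABCD4 in the lysosome, had 5090 in M2, 5754 in M1 and 5131 in M0 and did not share that pattern. Of 23 measured genes of peroxisomal import and fatty acid oxidation, 1 was at least 2-fold higher in M1 than in M0 (ACSL1, a fatty acyl-CoA synthetase, at 1.80) and 1 was lower (ACOX3, a peroxisomal oxidase, at -1.04). The shares of all genes there were 5.56% higher and 8.77% lower. The medians of this list, 0.035 in M1 and 0.017 in M2, each against M0, were near 0.

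The members without a membrane domain stood on the other side. ABCF1, a factor in translation initiation, had means of 2097 in M2, 3298 in M1 and 1720 in M0. ABCE1, which splits ribosomes after termination, had 1420 in M2, 1784 in M1 and 1049 in M0. ABCF3 had 1578 in M2, 1846 in M1 and 1483 in M0. M1 was highest for all 3 genes, by 1.92-fold, 1.70-fold and 1.25-fold against M0, which is below the 2-fold limit. M1 was also the highest group for 41.1% of all genes over the minimum, so this order is common. Of all genes, 93.6% had a log2 ratio of M1 over M0 at or below that of ABCF1. The share was 91.0% for ABCE1 and 73.6% for ABCF3. Of 14 measured genes of ribosome recycling and its stress responses, none differed 2-fold between M1 and M0, and their median log2 ratio was 0.22. Among all genes 5.56% were at least 2-fold higher in M1 and 8.77% lower. EIF2S1, encoding eIF2α, was at 0.86 and GSPT1, the release factor eRF3a, at 0.47.

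Sorted by role, a grouping made after the values were seen, the lower genes in M1 were unevenly placed. Of 7 exporters of drugs and conjugates (ABCB1, ABCC1, ABCC3, ABCC4, ABCC5, ABCC10 and ABCG2), 6 were at least 2-fold lower in M1 than in M0 (8.77% of all genes), with a median log2 ratio of -1.24. Of 6 lipid transporters (ABCA1, ABCA3, ABCA5, ABCA7, ABCB4 and ABCG1), 3 were lower, with a median of -0.96. Of 7 other transporters of mitochondria, peroxisomes and lysosomes (among them ABCB6, ABCB8, ABCB10, ABCD3 and ABCD4), 1 was lower, with a median of 0.11. ABCA5, though found in lysosomes, was counted with the lipid transporters, at -0.60 in M1 against M0. The 3 proteins without a membrane domain had a median of 0.77. In M2 against M0 the median was -0.38 for the drug and conjugate exporters, 0.23 for the lipid transporters, -0.14 for the organelle transporters and 0.29 for the proteins without a membrane domain. These are descriptions of few genes, with no test.

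Summed over the family, M2 had 65889, M1 had 54577 and M0 had 82916 normalized counts, which was 0.241%, 0.195% and 0.310% of the table. The log2 ratio of the sums was -0.60 in M1 and -0.33 in M2, each against M0. Without ABCA1 and ABCA3 it was -0.40 in M1 and -0.09 in M2, so most of the M2 difference in the sum came with ABCA1.

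TAP1, the peptide transporter of the antigen-presenting pathway, stood on the other side from most of its relatives, with means of 26206 in M2, 73266 in M1 and 18086 in M0. Its log2 ratio in M1 against M0 was 2.02. Of the 13 measured genes of peptide loading and its immunoproteasome supply, 9, TAP1 included, were at least 2-fold higher in M1 than in M0 and none was lower, with a median log2 ratio of 1.47. Among all genes 5.56% were higher and 8.77% lower. PSME2, a subunit of the proteasome activator PA28, and PSMB10, an immunoproteasome subunit, stood at 2.79 and 2.41.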

How the data were processed

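The authors used Partek Flow 7.0 for filtered reads, with STAR 2.7.3a as aligner, CanFam3.1 as genome and HTSeq for counts per gene. The counts were normalized, and the groups compared with DESeq2, by the authors. The library protocol and the methods do not say whether counting used strand. The signal values analysed are the least squares means of normalized counts per group in the table the authors deposited, limited to protein coding genes. The table also holds the authors' p-values, FDR, ratios and fold changes, and further tables hold their log2 ratios of 50 genes each. None of these were used. Log2 ratios of group means were computed without a pseudocount in Python 3.11.15 with numpy 2.4.6 and pandas 2.3.3, for genes with a mean of at least 50 in the higher group, and counted past 2-fold. The counting was tested on simulated data, with planted changes well past 2-fold in genes well above the minimum. The simulation held no variation between dogs and does not cover calls near 2-fold or at low means. No test across samples was possible. Members past 2-fold were described in full and 6 lists of partner genes by counts. Members and lists were chosen with earlier results of these data known. Alternatives changed the fold, the minimum, the pseudocount, the scaling and the membership. Gene levels were not compared per length, since no transcript lengths were at hand. RefSeq gave gene order only. Some genes of the family and of the partner lists entered the counts and medians but are not reported here by name.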

Additional observations from a re-analysis of the deposited data

How the results depend on the processing

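No paired analysis was possible because each group has 1 pooled value per gene, and for the same reason no replicate could be left out. The alternatives to the counts and medians were fixed at the outset, apart from the minimum on the mean of the 3 groups, the scaling of subfamily sums and that of partner lists, which were chosen after seeing the data. A count was taken as kept within 1.5 times its value, and a median or the ratio of a subfamily sum within 0.1. The 10 members lower in M1 than in M0 stayed 10 on the mean of the 3 groups, where 8.18% of all genes were lower, but only 2, ABCB1 and ABCC5, passed a log2 ratio of 1.5. ABCA7 and ABCC4 came to -0.991 and -0.999 with 10 added to both means, just within 2-fold. ABCC5, with 45.6 in M1, came to -1.37 in the same way, short of 1.5 in size. The median log2 ratio of M1 over M0 was -0.94 with no minimum, -0.72 with a minimum of 10, -0.23 with 200 and -0.43 with TAP1 added, and the cause was not tested. At 1.5-fold, 3 members were higher in M1 than in M0, 2 higher and 4 lower in M2 than in M0, and 2 lower in M2 than in M1. At a log2 ratio of 1.5, 0 were higher in M2 than in M0, 2 were higher in M2 than in M1 and 0 were lower. Members lower in M2 than in M0 numbered 3 with no minimum and 2 with a minimum of 10. With a minimum of 200, 3 were higher and 0 lower in M2 than in M1, and the median of that comparison was 0.35 with no minimum. With TAP1 added, 1 was higher in M1 than in M0 and 2 lower in M2 than in M1. For the other folds and the other minimums in the higher group, the share of all genes is not given here. The counts at those settings therefore have no background to be set against. Scaling the groups to equal totals shifted every log2 ratio by -0.07 in M1 and -0.03 in M2 against M0, and moved no count or median of members beyond these limits, nor did centring on the median of all genes. Among partner lists, equal totals and centring each gave 1 iron-sulfur or heme gene lower in M2 than in M0 (SLC25A37), and equal totals gave 0 glutathione or leukotriene genes higher in M1 than in M0. Ratios of called members kept their sign, but this is no check. Shifts this small and an added pseudocount cannot reverse a 2-fold difference.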

Other observations

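The members below 50 in every group had small means. ABCA13, a very large protein of subfamily A, had 3.35 in M2, 2.37 in M1 and 17.8 in M0. ABCA12, the lipid transporter of keratinocyte granules, had 9.85 in M2, 2.61 in M1 and 5.60 in M0. ABCC6, the gene of pseudoxanthoma elasticum, had 4.77 in M2, 3.98 in M1 and 9.73 in M0. ABCC6 is the direct neighbor of ABCC1 in RefSeq's annotation (UU_Cfam_GSD_1.0).

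Markers of other blood cells were mostly low but uneven. The B cell gene CD79A had 12039 in M2, 9856 in M1 and 10511 in M0, whereas MS4A1, which encodes CD20, had 18.2 in M2, 14.4 in M1 and 17.2 in M0. CD2, a receptor of T cells, had 919 in M2, 5032 in M1 and 1253 in M0, while CD3D had 33.7 in M2, 14.7 in M1 and 18.2 in M0. MS4A2, the mast cell chain of the IgE receptor, had 2240 in M2, 15.2 in M1 and 200 in M0. The table held 1 of 4 platelet markers, 1 of 4 of mast cells and 1 of 6 of fibroblasts. It also held 2 of 4 of endothelial cells and 2 of 4 of neutrophils. Every gene in the table had means above 0, and markers absent from it have no value here. Whether cells of these types contribute to the ABC values was not tested.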
